A study of Homo sapiens with 32 samples.

Results

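The windows described here are the open chromatin regions counted at 4 genes, ZNF143, its paralogue ZNF76, and the cofactors HCFC1 and THAP11. A counted window was assigned to a gene when its centre lay within 1000 bp of an annotated transcript start of that gene, or inside the gene body, and its signal played no part in that choice. Of 212358 windows in the count table, 23 were chosen in this way. ZNF143 had 8 windows, ZNF76 had 8, HCFC1 had 5 and THAP11 had 2. All windows had the same length, so that levels can be compared between them.

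Accessibility was measured by ATAC-seq, an assay that uses the Tn5 transposase to cut open DNA and leave sequencing adapters there. HEK293T is a human embryonic kidney cell line, and all libraries came from 1 clone of it, named HEK_CloneZD29, whose ZNF143 has an inducible degron tag. The treated cells received 50 nM dTAGV-1, a compound that joins a tagged protein to a ubiquitin ligase, for 30 minutes, and the control cells of the counted libraries received DMSO. Both groups therefore carry the tagged ZNF143, no untagged line was analysed here, and a single clone cannot separate the effect of the tag from that of the clone.

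The labels describe 32 libraries, of which the 16 of replicates 9 to 16 were counted, with 8 control and 8 dTAGV-1 libraries. Replicates 1 to 8 entered only through a list of peak summits with no value per library. The labels do not say that replicates came from separate cultures, so the p-values measure the spread between these libraries, which may be technical. ZNF143 protein was not analysed here, and accessibility of its gene does not show whether the protein was degraded.

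ZNF143 is a zinc finger transcription factor that binds promoters of protein-coding and small nuclear RNA genes and activates transcription there. ZNF76 is its close paralogue, with zinc fingers that recognise a very similar DNA motif. HCFC1 is a chromatin scaffold that does not bind DNA by a domain of its own and joins transcription factors to histone-modifying enzymes. THAP11, also called Ronin, is a THAP domain protein that binds HCFC1 and is found with ZNF143 and HCFC1 at many promoters. The comparison asks whether the chromatin at the genes of this group itself changed soon after ZNF143 was targeted.

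The sequence of the THAP11 promoter is shown first because it was the only one of the 4 genes with a match to the ZNF143 motif within 1000 bp of a transcript start. It is RefSeq's stretch of 250 bases before the THAP11 start on the plus strand (GRCh38.p14, chr16:67842070-67842319), in which no annotated exon lies. The first capitals mark the ETS letters CCGGAAG, and the second mark the ZNF143 core motif, which reads on the opposite strand.
THAP11 promoter: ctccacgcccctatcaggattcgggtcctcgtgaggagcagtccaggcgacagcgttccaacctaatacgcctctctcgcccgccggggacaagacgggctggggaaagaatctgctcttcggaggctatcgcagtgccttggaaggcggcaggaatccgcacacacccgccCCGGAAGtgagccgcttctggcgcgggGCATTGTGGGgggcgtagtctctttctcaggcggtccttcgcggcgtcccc
The match itself is given on its own strand, the minus strand, with the core in capitals (chr16:67842264-67842293).
THAP11 match: aaagagactacgcccCCCACAATGCcccgc

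The bases before the core include the letters ACTAC at a spacing of 4 bases, the extended form of the ZNF143 motif. The extended match covers positions 67842269 to 67842287 and has its middle 42 bp upstream of the THAP11 start. It lay inside no counted window. The end of the nearest window, the more accessible of the THAP11 windows, was 68 bp away.

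The core motif was found in 0 of the 23 windows on either strand, against 1.39% of all 212358 windows and 1.2% of 35116 RefSeq promoters of 300 bp. The extended form was found in 0.057% of all windows and 0.211% of RefSeq promoters. Within 100 bp of the window centre, the core was again in 0 of the 23 windows, against 0.604% of all windows. An absent match says only that these letters are not in these windows.

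A palindromic CRE, TGACGTCA, the sequence bound by CREB and ATF factors, was held by the most accessible promoter window of ZNF143, of ZNF76 and of HCFC1. The 3 matches are shown because they are a sequence feature that these promoters share and that the THAP11 window lacks. They are written on the strand of each gene, with the CRE in capitals, from hg38 at chr11:9460837-9460866 (plus), chr6:35259445-35259474 (plus) and chrX:153971872-153971901 (minus).
ZNF143: tcaggcttggcTGACGTCAgttgagtgggc
ZNF76: cccgggcgtcgTGACGTCAgcacgccttcc
HCFC1: gggggaagcggTGACGTCAcccggctccgc

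The CRE lay 3.5 bp from the centre of the ZNF143 window, 24.5 bp from that of ZNF76 and 163.5 bp from that of HCFC1. It was found in 3 of the 23 windows, against 0.528% of all windows and 1.85% of RefSeq promoters. The YY1 letters AAGATGGC were found in 4 of the 23 windows, all at HCFC1, against 2.31% of all windows and 2.89% of promoters. Around the starts of HCFC1 there were 7 such matches, and 6 of them lay in a window. The ETS letters were in 2 of the 23 windows, 1 at ZNF143 and 1 at HCFC1, against 3.46% of all windows and 10.3% of promoters. The NFY letters CCAAT were in 10 windows, against 38.8% of all windows and 34.6% of promoters. The SP and KLF letters GGGCGG were in 14 windows, against 21.3% of all windows and 45% of promoters. A CTCF match was in 1 window, an intronic window of ZNF143, against 3.1% of all windows and 0.47% of promoters.

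Library totals in the count table ranged from 2275856 to 11418578 in control and from 3373219 to 13671039 in dTAGV-1. The shallow libraries were flatter, with less of their signal in strong windows. The top decile of windows held 32% of the counts in control replicate 12, 39.1% in dTAGV-1 replicate 12, 41.9% in dTAGV-1 replicate 11 and 45.9% in control replicate 11, against 48.1% to 49.5% in the other 12 libraries. Results are therefore also given without replicates 11 and 12 of both groups. Of the genes read as markers of the embryonic kidney line, PAX2, EYA1 and EMX2 had tested windows at a start (3.36, 4.05 and 4.24 log2 CPM in control), LHX1 was too low to test, and PAX8 had none. The hepatocyte markers ALB and APOA1 and the blood markers PTPRC, CD3E and ITGAM had no window. The fibroblast markers COL1A1 and PDGFRB had windows at 3.89 and 1.08 log2 CPM.

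**Figure D1:**
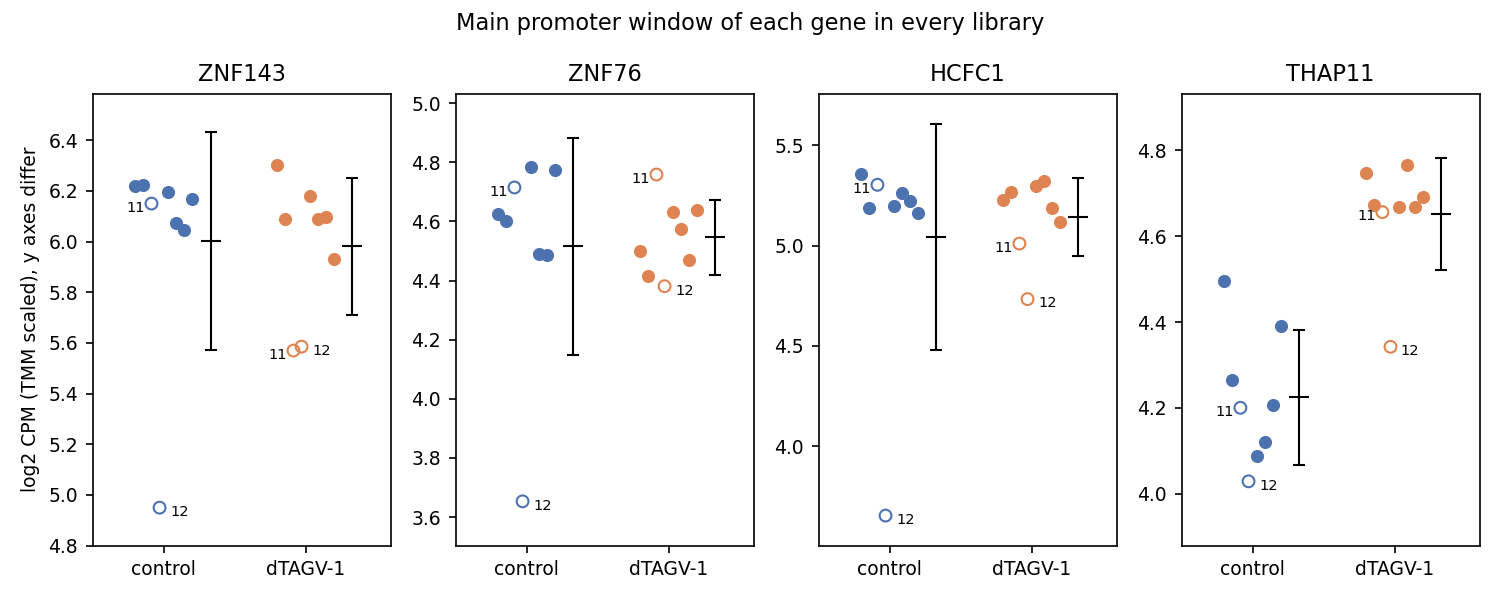
Log2 CPM (CPM, library-scaled counts, with TMM factors) of the main promoter window of each gene in each of the 8 control and 8 dTAGV-1 libraries, with the mean and SD beside the points. Open circles are replicates 11 and 12, and the y axes differ and do not start at 0. The groups overlap in every panel. The THAP11 panel shows 7 of the 8 dTAGV-1 libraries above the highest control library, with replicate 12 inside the control range. At ZNF143 1 dTAGV-1 library lies above the highest control library, and at ZNF76 and HCFC1 0 do.

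In the counted windows, none of the 4 promoters lost accessibility beyond the spread of the libraries. No counted window covered the THAP11 start or the ZNF143 match beside it, so a change there could not be seen. After a filter on low counts, 19 of the 23 windows were tested, together with 185040 windows in all. No window of the 4 genes was called by edgeR's quasi-likelihood test at a Benjamini-Hochberg adjusted p under 0.05, 0 lower and 0 higher. Over all tested windows 0.215% were called, 395 lower and 2 higher, so that a count of 0 among 19 is near that background. At an unadjusted p under 0.05, 2 of the 19 windows passed, both higher in dTAGV-1, where 2.85% of all windows passed in either direction and 1.3% passed as higher. Other tools did call a window of these genes, the main THAP11 window, and its values are given below.

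The fitted log2 fold change of dTAGV-1 against control was above 0 in 14 of the 19 windows and below 0 in 5, against 51.8% above 0 over all tested windows. Its median over the 19 was 0.079, with a range from -0.09 to 0.43, beside a median of 0.0077 over all windows. The standard errors ranged from 0.13 to 0.31. The 95% intervals of all 19 windows excluded a halving and a doubling of the signal, and 17 of them held 0. Among the 23 windows, 6 overlapped another of them and so share counts.

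**Figure D2:**
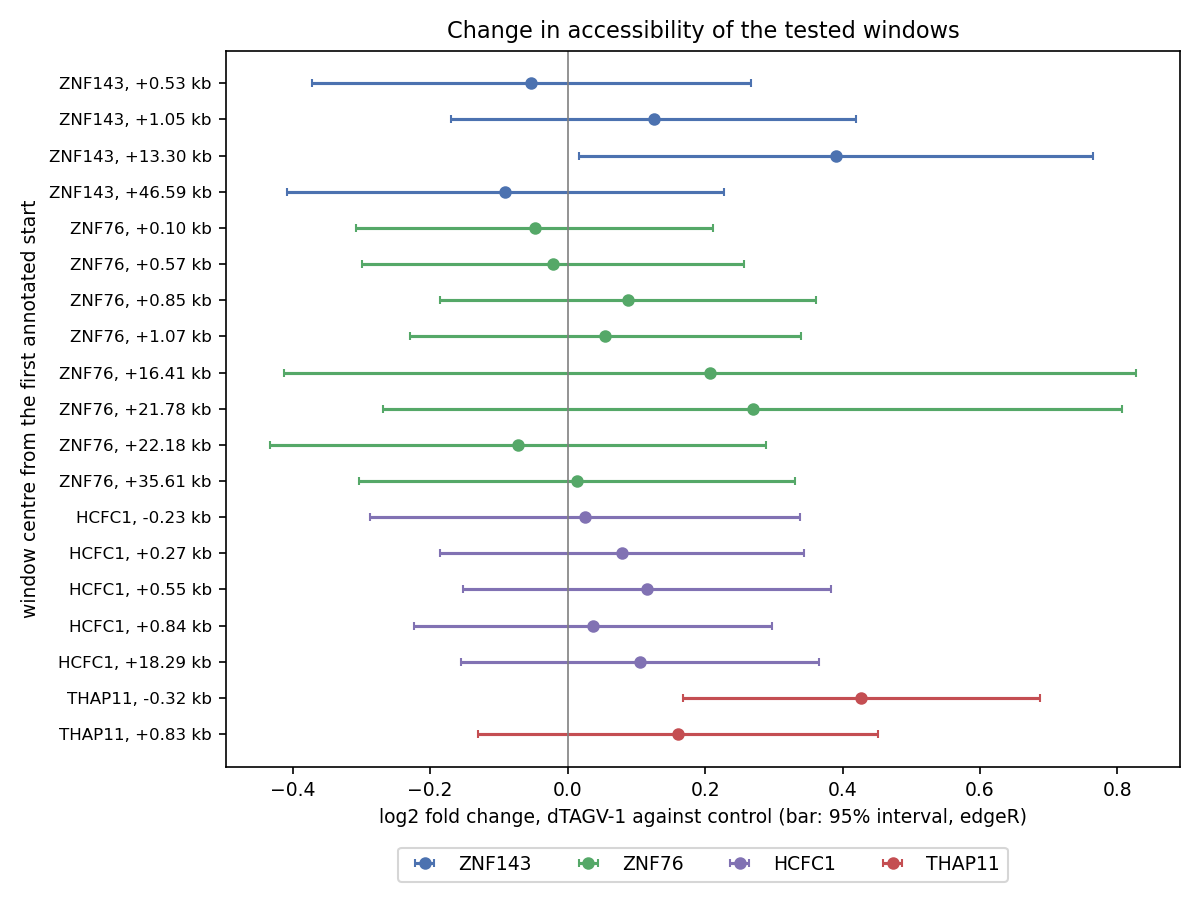
Log2 fold change of dTAGV-1 against control (x axis) of the 19 tested windows, each named on the y axis by its gene and the distance of its centre from the first annotated start in kb. Bars are 95% intervals from edgeR. The main THAP11 window at 0.43 and the ZNF143 window from 9473417 at 0.39 are the windows whose intervals lie above 0.

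The main promoter window of a gene was the tested window with the highest mean log2 CPM among those near its starts. At ZNF143, the gene of the tagged factor, it covered chr11:9460648-9461048, in an untranslated region of longer transcripts, with its centre 128 bp from a start of the gene (ENSG00000166478.10, plus strand) and 146 bp from a start of a long noncoding RNA. It stood at 4.95, 6.16 and 6.22 log2 CPM in control (lowest, median and highest library) and at 5.57, 6.09 and 6.3 in dTAGV-1. The groups overlapped over most of their range, and control replicate 12 lay well below all other libraries. The means were 6.0 ± 0.43 and 5.98 ± 0.27 (SD, n = 8 each). The fitted log2 fold change was -0.05, with a 95% interval from -0.37 to 0.27 and a standard error of 0.16. An exact two-sided permutation test over the 12870 assignments of libraries gave p = 0.903 for the difference of means, and p = 0.53 without replicates 11 and 12.

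This window was more accessible than 98.7% of the 38119 tested windows centred within 500 bp of a transcript start. The neighbouring window from 9461167, centred in an intron 281 bp from another start, had a mean of 4.05 ± 0.40 in the controls and of 4.20 ± 0.29 with dTAGV-1 (SD, n = 8 each), with a log2 fold change of 0.12 ± 0.15 (standard error).

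Inside the ZNF143 gene, the intronic window from 9473417 to 9473817, 2510 bp from the nearest start, was the other one to pass the unadjusted threshold. It stood at 0.79, 1.83 and 2.45 log2 CPM in control and at 1.96, 2.09 and 2.64 in dTAGV-1 (lowest, median, highest). The dTAGV-1 values lay in the upper part of the control range, with 1 of 8 above the highest control library. Its log2 fold change was 0.39 (standard error 0.19, 95% interval 0.02 to 0.76, edgeR adjusted p = 1.00). The exact permutation test gave p = 0.0517, and without replicates 11 and 12 the difference of means was 0.24 with an exact p = 0.0952. The window held 215 control and 288 dTAGV-1 counts over 8 libraries each.

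The intronic window with the CTCF match, from 9506713, had a mean of 2.63 ± 0.31 in the controls and of 2.51 ± 0.37 with dTAGV-1 (SD, n = 8 each). Its log2 fold change of -0.09 ± 0.16 (standard error) was the lowest of the 19. CTCF binds insulators and loop anchors, and the middle of the match lay 22.5 bp from the window centre. The other 4 ZNF143 windows lay in introns or a coding exon, held 46 to 60 control counts each over 8 libraries, and were not tested. With no filter on low counts their log2 fold changes were 0.23, -0.05, 0.72 and 0.53, with standard errors of 0.35 to 0.39 and adjusted p of 1.00 each. The highest of these, in the coding exon window from 9516110, was the only one of these 4 to pass an unadjusted p of 0.05 in that edgeR fit.

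ZNF76 had 4 windows in a row over its starts (ENSG00000065029.15, plus strand), and none of them moved beyond the spread. The main window, chr6:35259284-35259684, was centred in an untranslated region 13 bp from a start. It stood at 3.65, 4.61 and 4.78 log2 CPM in control and at 4.38, 4.54 and 4.76 in dTAGV-1. Every dTAGV-1 library lay within the control range, whose low end was control replicate 12. The means were 4.52 ± 0.37 and 4.55 ± 0.13 (SD, n = 8 each), and the log2 fold change was -0.02 (95% interval -0.30 to 0.26, standard error 0.14). The exact permutation test gave p = 0.921, and p = 0.197 without replicates 11 and 12.

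The other 3 windows over the ZNF76 starts had control means of 3.28 to 3.68 log2 CPM and log2 fold changes of -0.05, 0.09 and 0.05. The main window of ZNF76 was thus the strongest of this row, above 85.1% of promoter windows. Further into the gene, 4 windows were tested. A coding exon window from 35294319, near the start of a short transcript, had a mean of 2.62 ± 0.51 in the controls and of 2.74 ± 0.27 with dTAGV-1 (SD, n = 8 each), with a log2 fold change of 0.01. An untranslated region window from 35280894 had a log2 fold change of -0.07.

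The weakest tested windows of the group were intronic windows of ZNF76. The window from 35275120 had a control mean of 0.89 log2 CPM and a log2 fold change of 0.21 ± 0.31 (standard error). The window from 35280490, which had the smallest p in this gene body, stood at -0.70, 1.05 and 1.47 in control and at 0.81, 1.11 and 2.71 in dTAGV-1. Both extremes came from replicate 12, the control library at the low end and the dTAGV-1 library at the high end. Its log2 fold change was 0.27 (standard error 0.27, edgeR adjusted p = 1.00), and the exact permutation test gave p = 0.348. Without replicates 11 and 12 it was -0.02, the opposite sign.

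HCFC1 had a broad open region over its first starts, and no window in it was called (ENSG00000172534.14, minus strand). The main window, chrX:153971850-153972250, lay outside the gene, centred 232 bp upstream of its first start and 704 bp from a start of the neighbouring gene TMEM187. It stood at 3.65, 5.21 and 5.36 log2 CPM in control and at 4.73, 5.21 and 5.32 in dTAGV-1. The medians of the groups were the same to this precision, and control replicate 12 was again far below the rest. The means were 5.04 ± 0.57 and 5.14 ± 0.19 (SD, n = 8 each). A log2 fold change of 0.03 was fitted (95% interval -0.29 to 0.34, standard error 0.16). The exact permutation test gave p = 0.880, and p = 0.948 without replicates 11 and 12.

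All 5 HCFC1 windows had a fitted log2 fold change above 0, against 51.8% of all tested windows. The neighbouring windows from 153970779, 153971067 and 153971348 overlap in a row and so share counts. The 5 log2 fold changes had a median of 0.079 and a highest value of 0.12, and none passed an unadjusted p of 0.05. The highest belonged to the window from 153971067, centred in an untranslated region 83 bp from a start, which holds the ETS match 16 bp from its centre. It stood at 4.33, 4.82 and 4.85 log2 CPM in control and at 4.54, 4.94 and 5.09 in dTAGV-1. In 5 of 8 dTAGV-1 libraries it was above the highest control library, and the other dTAGV-1 values lay among the controls. The standard error of its log2 fold change was 0.13 and the edgeR adjusted p was 1.00. The window from 153953331, in an intron 590 bp from the start of a short transcript and the strongest of the gene by the authors' q value, had means of 3.82 in control and 3.94 in dTAGV-1 (log2 fold change 0.11 ± 0.13, standard error).

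Among the 19 tested windows, the main THAP11 window differed most between the groups (ENSG00000168286.3, plus strand). The main window, chr16:67841801-67842201, was centred 319 bp upstream of its single annotated start. The same centre lay 51 bp from a start of CENPT, a kinetochore protein gene read in the other direction, and counts at a shared promoter cannot be assigned to either gene. The window stood at 4.03, 4.20 and 4.50 log2 CPM in control and at 4.34, 4.67 and 4.77 in dTAGV-1 (lowest, median, highest). Of the dTAGV-1 libraries, 7 of 8 lay above the highest control library, the exception being the flat library of dTAGV-1 replicate 12, and 8 of 8 lay above the control mean. Complete separation, with all dTAGV-1 libraries above all control libraries, occurred in 0.00324% of all tested windows and not in this one. The share of windows with 7 of 8 above the highest control library was not computed.

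The means of the THAP11 window were 4.22 ± 0.16 and 4.65 ± 0.13 (SD, n = 8 each), from 1229 control and 1710 dTAGV-1 counts. On the log2 scale dTAGV-1 was higher by 0.43 (standard error 0.13, 95% interval 0.17 to 0.69), a 1.34-fold higher signal with an interval from 1.12 to 1.61. edgeR's quasi-likelihood test gave an unadjusted p of 0.00175 and an adjusted p of 0.504, so that the window was not called. The exact two-sided permutation test for this single window, not corrected for the other windows, gave p = 0.000466. Without replicates 11 and 12 the difference of means was 0.44 and the exact p was 0.00216, the smallest that 924 assignments allow. Every dTAGV-1 library left then lay above every control library left. This p was not corrected for the other windows, and the share of all windows that separate in this way was not computed.

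The size of the THAP11 difference stayed close between models, while the call depended on the model. DESeq2 gave 0.43 with an adjusted p of 0.00158, where it called 0.00216% of all windows as higher. Limma voom with cyclic loess gave 0.44 with an adjusted p of 0.00588, where 0.00378% of windows were called higher. edgeR with library totals in place of TMM factors gave 0.43 with an adjusted p of 0.0349, where 0.00162% were called higher. edgeR without replicates 11 and 12 of both groups gave 0.44 with an adjusted p of 0.00158, where 0.0075% were called higher. edgeR with RLE factors gave 0.43 with an adjusted p of 0.486. With no filter on low counts edgeR gave 0.43 with an adjusted p of 0.893, so neither called the window. When a single library was left out in turn, the log2 fold change stayed between 0.41 and 0.47 and the adjusted p between 0.123 and 1.00.

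**Figure D3:**
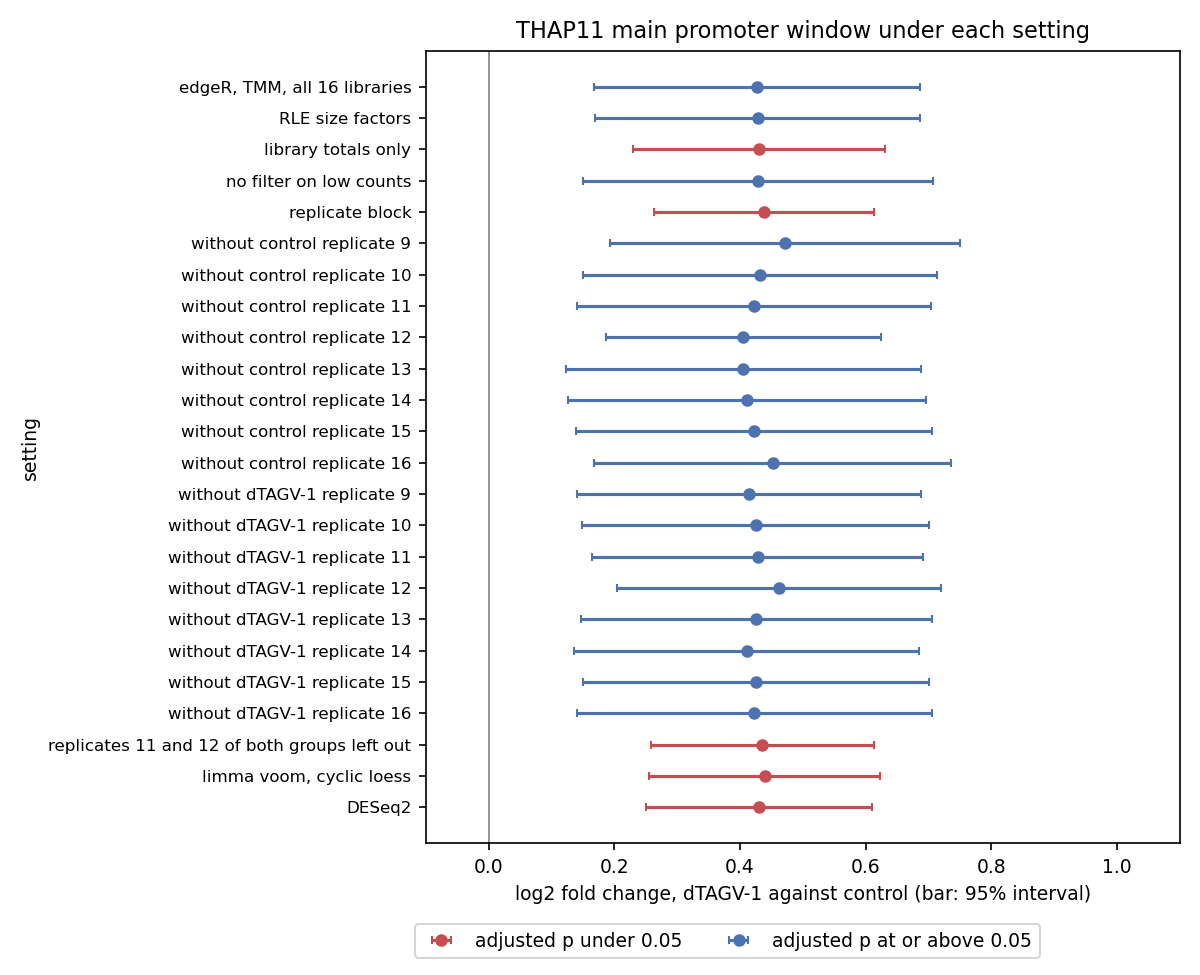
Log2 fold change of dTAGV-1 against control (x axis) in the main THAP11 window under each setting on the y axis, with 95% intervals. Red points have an adjusted p under 0.05 and blue points do not. All points lie between 0.41 and 0.47, and the red ones have the narrower intervals.

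The second THAP11 window, chr16:67842949-67843349, lay in the coding exon of THAP11, which also overlaps an exon of CENPT. Its centre was 829 bp downstream of the THAP11 start and 7 bp from a start of CENPT. Its counts therefore cannot be assigned to either gene. The window stood at 2.24, 2.83 and 3.15 log2 CPM in control and at 2.35, 3.05 and 3.28 in dTAGV-1. The groups overlapped, with 3 of 8 dTAGV-1 libraries above the highest control library. The difference was 0.16 on the log2 scale (standard error 0.15, edgeR adjusted p = 1.00). No window was counted over the THAP11 start itself or over the ZNF143 match.

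The position of the ZNF143 match beside the main THAP11 window, and not in it, led to a description of other windows of each kind, chosen after the data were seen. Over the whole table, 121 windows held an extended match, of which 118 were tested. Their median log2 fold change was -0.34, 14 of them were above 0, and 29 were called lower and 0 higher, or 59 lower and 0 higher without replicates 11 and 12. Over all 185040 tested windows the median was 0.0077, 51.8% were above 0, and 395 were called lower and 2 higher, or 767 lower and 14 higher without replicates 11 and 12. Another 8 windows had the match within 100 bp of an edge but in no counted window, as the main THAP11 window does. Their median was -0.11, with a range from -1.07 to 0.43, 3 were above 0, and 2 were called lower and 0 higher, or 3 lower and 1 higher without replicates 11 and 12. The main THAP11 window was itself 1 of these 8 and the highest of them. It was also the 1 called higher without replicates 11 and 12. A further 23 windows had the match within 100 bp of an edge and inside another counted window, with a median of -0.05 and a range from -0.41 to 0.28. No test was made between these kinds.

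**Figure D4:**
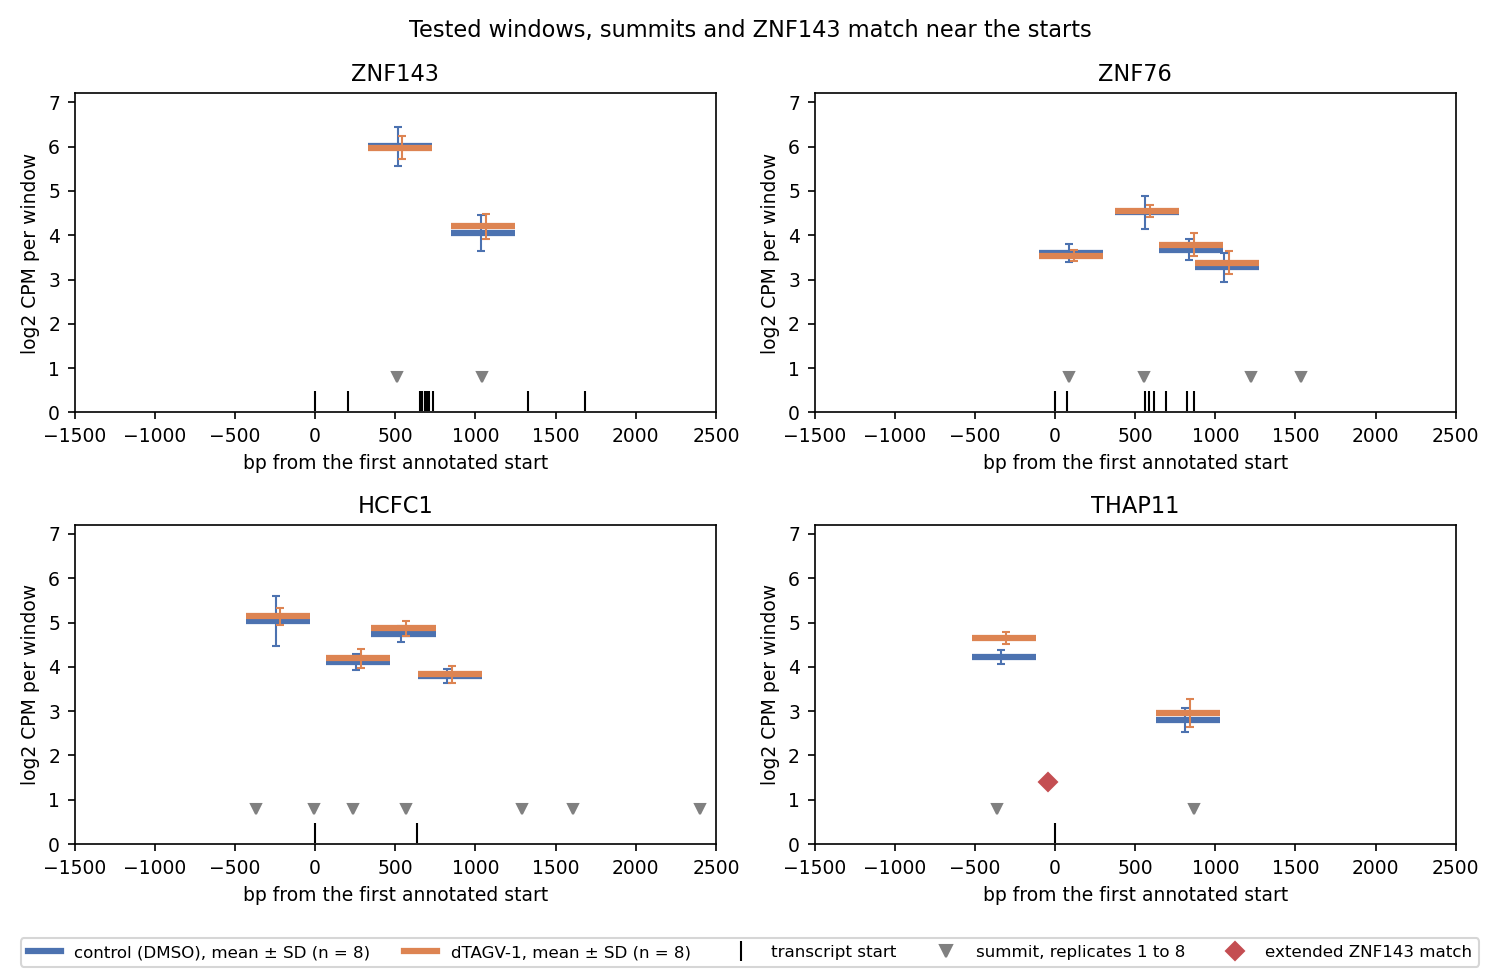
Mean log2 CPM (y axis, with SD, n = 8 libraries a group) of the tested windows near the first annotated start of each gene (x axis, bp from that start in the direction of transcription). Horizontal bars span each window, ticks are transcript starts, triangles are summits of replicates 1 to 8, and the diamond is the extended ZNF143 match. At THAP11 the diamond lies between the windows, and only there do the control and dTAGV-1 bars stand apart by more than their SDs.

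Among the main windows, the order of levels in control was ZNF143, HCFC1, ZNF76 and THAP11. ZNF143 exceeded HCFC1 by 0.96 ± 0.16 log2 CPM in control and by 0.84 ± 0.15 in dTAGV-1 (SD over 8 libraries of the difference within a library), in 8 of 8 libraries each. HCFC1 exceeded ZNF76 by 0.53 ± 0.26 in control, in 7 of 8 libraries with a tie in replicate 12, and by 0.60 ± 0.21 in dTAGV-1, in 8 of 8. Over all 8 libraries of a group, ZNF76 and THAP11 were not separated beyond their spread. In control ZNF76 exceeded THAP11 by 0.29 ± 0.32, in 7 of 8 libraries, the exception being replicate 12. In dTAGV-1 the difference was -0.11 ± 0.14, with ZNF76 above in 2 of 8. Without replicates 11 and 12 the control means were 4.63 ± 0.13 for ZNF76 and 4.26 ± 0.16 for THAP11 (SD). The dTAGV-1 means were then 4.54 ± 0.09 and 4.70 ± 0.04, in the opposite order.

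The deposited lists add the authors' own peak scores, used only to describe regions within each list. In the count table the main windows had -log10 q values of 2126.82 at ZNF143, 844.79 at ZNF76, 420.774 at THAP11 and 332.22 at HCFC1. In the separate summit list of replicates 1 to 8, 26 summits fell at the 4 genes, 9 each at ZNF76 and HCFC1, 6 at ZNF143 and 2 at THAP11. Of these, 18 lay in a counted window. The highest score, 1216.07, was at position 9460830 in the main ZNF143 window, and the main THAP11 window held a summit at 67841956 with a score of 158.508. The 8 summits outside the windows included 5 at HCFC1. One of them, at 153971824, lay 6 bp upstream of the first HCFC1 start and scored 47.4618.

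Other genes of the HCFC1 network were read at their own promoters, by the most accessible tested window within 500 bp of a start. Of 18 genes for HCFC1 partners and its paralogue HCFC2, 18 were tested. HCFC1R1 was called lower and 0 were called higher, where 0.215% of all tested windows were called (395 lower and 2 higher), and the median log2 fold change was 0.01, with 10 genes above 0. Histone methyltransferase partners were near 0 without passing the test, with log2 fold changes of -0.09 for KMT2A, 0.08 for SETD1A and 0.06 for WDR5. The same held for OGT, the glycosyltransferase that cleaves HCFC1, at -0.03. These 4 genes were picked for their roles after the values were seen. Of 11 other THAP family genes, 11 were tested, and 0 were called. Their log2 fold changes ranged from -0.05 to 0.06, with a median of -0.02, and 0 passed an unadjusted p of 0.05 in edgeR.

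HCFC1R1 encodes a small protein that binds the HCFC1 beta-propeller. Its window, chr16:3024135-3024535, was centred 49 bp from its start and 197 bp from a start of THOC6, so the counts belong to a shared promoter. It stood at 4.48, 4.99 and 5.13 log2 CPM in control and at 4.04, 4.36 and 4.63 in dTAGV-1. Of the dTAGV-1 libraries, 6 of 8 lay below the lowest control library, which was control replicate 12. The fitted log2 fold change was -0.59 (standard error 0.14, 0.664-fold, edgeR adjusted p = 0.0319). It held no core motif. The call was lost in 14 of the 16 fits that left out 1 library, with adjusted p from 0.000146 to 0.153 over the 16, and the log2 fold change stayed between -0.64 and -0.55. It held without control replicate 12 and without dTAGV-1 replicate 10 and was lost with no filter on low counts (adjusted p = 0.0886). It was kept with RLE factors (0.0306), library totals (0.000342), limma voom (6.38e-06), DESeq2 (6.89e-06) and without replicates 11 and 12 (1.59e-07).

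CREB3, named here after its values were seen, encodes a membrane-bound transcription factor that binds HCFC1, and was the other partner with an unadjusted p under 0.05. Its window, which also lies 298 bp from a start of TLN1, went from 5.81 ± 0.49 to 5.36 ± 0.37 log2 CPM (SD, n = 8 each). The fitted log2 fold change was -0.48 (standard error 0.17, edgeR adjusted p = 1.00). It was called without control replicate 12 (adjusted p = 0.00427), without replicates 11 and 12 of both groups (8.82e-08) and by limma voom (6.11e-06). Among RefSeq promoters, the core motif was found in 2 of 16 partner genes, GABPA and HCFC2, and in 0 of 9 THAP family genes. Over all RefSeq promoters the share was 1.2%. Among the windows tested for these lists, those of GABPA, HCFC2 and THAP12 held the core motif.

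Finally, the main window of each gene was set beside promoter windows of genes on other chromosomes, by Pearson's r of log2 CPM over the 16 libraries. These values are descriptions, since all windows share the depth and flatness of each library. For ZNF143 the most alike were WBP2 (r = 0.977), F8 (0.971) and MMP24OS (0.971), beside a median of 0.56 over all windows compared. Over the 12 libraries without replicates 11 and 12 the most alike were MAP3K12 (0.963), USP21 (0.919) and WBP2 (0.914), beside a median of -0.07. For ZNF76 they were SVBP (0.956), CTDSPL2 (0.948) and FBXO44 (0.947), beside a median of 0.48. For HCFC1 they were STMP1 (0.987), DDX59 (0.984) and LRWD1 (0.982), beside a median of 0.59. Their r over the 12 libraries was 0.677, 0.706 and 0.636. The lists of ZNF76, HCFC1 and THAP11 over the 12 libraries held none of the genes named over 16. They were headed by LRRC74B for ZNF76 (0.893, against -0.40 over 16), ICA1L for HCFC1 (0.934, against 0.56) and FAM199X for THAP11 (0.909, against 0.50), with medians of all windows from -0.01 to 0.03.

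For THAP11 the most alike over 16 libraries were CALCOCO1 (r = 0.836), PPP3CB (0.819) and ANK2 (0.802), beside a median of 0.23. Over the 12 libraries these were 0.817, 0.773 and 0.782. Their log2 fold changes were 0.79, 0.29 and 0.41. A value above 0 follows from the choice, since the genes were picked by likeness to a window that is higher in dTAGV-1 over libraries of both groups. CALCOCO1, a nuclear receptor coactivator also known as an autophagy receptor, was called higher (edgeR adjusted p = 0.0152), and the other two had adjusted p of 1.00.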

How the data were processed

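Per the submitters' processing notes, reads were handled with cutadapt 1.8.1, Bowtie2 2.4.4 and SAMtools 1.9 on hg38. The peak caller, the counting tool and any shift of reads for the Tn5 offset are not given in the sources used here. The authors deposited raw counts per window for 16 libraries, per the file headers, with a -log10 q for each window, and a summit list with 1 -log10 score per summit from the authors' peak calling. Unused sample columns numbered 0. All 212358 windows lay inside hg38 chromosome ends.

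Counts were fitted in edgeR 4.0.16 (R 4.3.3) over the whole table with filterByExpr, TMM scaling, the quasi-likelihood test without covariates and Benjamini-Hochberg adjustment at 0.05. Log2 CPM used a prior count of 2. Single windows were also compared by exact permutation (scipy 1.17.1). Alternatives were RLE factors, library totals, limma 3.58.1 voom, DESeq2 1.42.0, no filter, a replicate block, and left-out libraries. The fit was tested on simulated data. Among 56 pairs of libraries of 1 group, chi-square per degree of freedom was 1.65 to 4.89, so no pair agreed within sampling noise.

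Starts and exons came from GENCODE release 44. RefSeq's promoter table matched 2 of the 4 genes, ZNF143 and THAP11. Motifs were searched on both strands, palindromes counted once, and an extended match contains a core match. The genes and lists were chosen with earlier results of these data known. By rule, values over libraries were given for the main window of each gene and, in the gene bodies away from starts, the window with the smallest p. Other genes named by rule were the called ones of the HCFC1 and THAP lists, and the 3 most alike per main window. The library values of 1 further HCFC1 and 1 further THAP11 window, and KMT2A, SETD1A, WDR5, OGT, CREB3, GABPA, HCFC2 and THAP12, were chosen after their values were seen. Some items of the marker lists are not reported here.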

Additional observations from a re-analysis of the deposited data

Results flagged for a closer look

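In groups of 8 libraries, a library was taken to stand apart when its gap to the nearest other value was, relative to the whole range, above the 95% limit of Dixon's test. Of 18 groups looked at, 8 held such a library, where chance alone flags about 1 in 20, and all 8 were replicate 12. The share of counts in the top decile of windows was 32% in control replicate 12, against 45.9% to 49.5% in the other control libraries.

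Control replicate 12 was low in strong promoter windows. It stood at 4.95 log2 CPM in the main ZNF143 window, against 6.05 to 6.22 in the other controls. In the main ZNF76 window it stood at 3.65 (others 4.49 to 4.78), and in the main HCFC1 window also at 3.65 (others 5.16 to 5.36). In the HCFC1R1 window it stood at 4.48 (others 4.88 to 5.13). In the weak ZNF76 intronic window from 35280490 it stood at -0.70 (others 0.79 to 1.47), while dTAGV-1 replicate 12 stood at 2.71 there (others 0.81 to 1.31).

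In the main THAP11 window, dTAGV-1 replicate 12 stood at 4.34, below the other dTAGV-1 libraries at 4.66 to 4.77. The part that depth and flat signal play in these values was not tested.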

How the results depend on the processing

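Of 230 alternative values, 176 kept their direction and their side of the threshold or, for counts of calls, stayed within 1.5 times. In all, 397 of the tested windows were called, against 753 with the replicate block, 781 without replicates 11 and 12 of both groups, 685 with limma voom, and 321 to 632 with 1 library left out, the highest without control replicate 12. Of the windows of the 4 genes, 1 was called with library totals only, with the block, without replicates 11 and 12, with limma voom and with DESeq2, in each case the main THAP11 window. Its log2 fold changes were then 0.43, 0.44, 0.44, 0.44 and 0.43. With 1 library left out the count was 0 to 0. Of the HCFC1 and THAP lists, 1 gene was called, against 0 with no filter, 2 (HCFC1R1 and CREB3) with the block, without replicates 11 and 12 or with limma voom, and 0 to 2 with 1 library left out.

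With 1 library left out, the log2 fold change ranged from -0.081 to 0.070 in the main HCFC1 window, below 0 without control replicate 12 (-0.081) and without dTAGV-1 replicate 14 (-7.75e-05). In the main ZNF76 window it ranged from -0.098 to 0.015, above 0 without control replicate 11 (0.00075), 13 (0.015) or 16 (0.012). It ranged from -0.15 to -0.0024 in the main ZNF143 window and from 0.41 to 0.47 in that of THAP11. The ZNF76 window from 35280490 turned to -0.019 without replicates 11 and 12. The cause was not tested.

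Same-numbered control and dTAGV-1 libraries had correlated deviations of 0.028 to 0.336, over 0.1 in 5 of 8 pairs, and 5 of 8 correlated best with their own number. The main fit had no replicate block because the labels do not say that the numbers pair the libraries. Whether same-numbered libraries share a batch was not tested. With the replicate block the main THAP11 window had an adjusted p of 0.000926. Other scalings moved the median of all windows by less than the standard error of any window here. Taking windows within 500 bp of a start in place of 1000 bp left 11 in place of 14, with 0 called in each. Low counts limit the windows inside ZNF143 most, where 4 could not be tested.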
